A study of Sus scrofa with 3 samples.

Results

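The miR-30 family is a group of closely related microRNAs (miRNAs) made from 6 precursors, mir-30a, mir-30b, mir-30c-1, mir-30c-2, mir-30d and mir-30e. A precursor hairpin is cut into a 5p and a 3p strand, called arms, and an arm loaded into Argonaute represses messenger RNAs that pair with its seed near the 5′ end. The 5p arms of the family share a seed and are usually the abundant strand. The family is known for roles in epithelial and liver biology: miR-30a restrains autophagy through beclin 1 in human cells, miR-30c lowers the secretion of lipoproteins from mouse liver by repressing microsomal triglyceride transfer protein, and miR-30 members are needed for bile duct formation in zebrafish. Members were found by name in the deposited counts, as every mature name that reads miR-30a to miR-30e once an arm ending is removed. This gave 9 of the 405 miRNAs kept: the 5p arms ssc-miR-30a-5p, ssc-miR-30b-5p, ssc-miR-30c-5p and ssc-miR-30e-5p, ssc-miR-30d, which is named without an arm and is counted here with the 5p arms, and the 3p arms ssc-miR-30a-3p, ssc-miR-30b-3p, ssc-miR-30c-3p and ssc-miR-30e-3p. The prefix ssc, for Sus scrofa, is dropped below. A related name, miR-30c-1-3p, falls outside that rule because its name carries the precursor number, and its values are given apart. It was added after its values were seen.

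The libraries are small RNA of liver from male pigs aged 90 days. The 3 groups were the Enshi black pig, a domestic breed of China, the Chinese wild boar, and the Large White pig, a commercial breed of European origin, with 1 library each. The labels name no treatment, and sex, age and tissue were the same, so breed is the only labelled difference. The labels speak of liver from 3 male pigs and do not state outright that each library is a single animal. With 1 library per breed there is no replicate error, and no p-value was computed. Every interval below is an exact 95% interval that covers counting error only, and a difference between libraries includes any difference between individual animals and preparations.

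The libraries held 7730934 miRNA reads for the Enshi black pig, 7824836 for the wild boar and 7343033 for the Large White pig. As a check of the tissue, miR-122, the miRNA that defines hepatocytes, ranked first in each. It took 34.2% of reads in the Enshi black, 39.5% in the wild boar and 41.4% in the Large White library. Levels are given as counts per 1000000 reads (CPM) after scaling by trimmed mean of M-values (TMM), which assumes that most miRNAs do not differ, and where it matters as CPM of the plain library total. The choice is large here. TMM moved the median log2 ratio of all 208 tested miRNAs to −0.04 for Enshi black over Large White, where library totals gave 0.60. For wild boar over Large White the same medians were −0.02 and 0.46, and for Enshi black over wild boar −0.01 and 0.15. Results that do not depend on this choice are the make-up of the family, the ratios between members inside a library and the use of the arms.

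The family was an abundant one in all 3 livers. Its 9 members took 3.52% of miRNA reads in the Enshi black library (Clopper-Pearson interval 3.51 to 3.54), 3.22% in the wild boar library (3.21 to 3.23) and 2.17% in the Large White library (2.16 to 2.18). The share was thus highest in the Enshi black and lowest in the Large White liver. In bulk tissue, fewer cells of a type and less RNA per cell cannot be told apart. With miR-122 left out of the total, the 2 Chinese libraries came together at 5.35% in the Enshi black and 5.32% in the wild boar, against 3.703% in the Large White library. Scaled by TMM, the same reads summed to 29313 CPM in the Enshi black liver, 29872 CPM in the wild boar liver and 28090 CPM in the Large White liver. On that scale the family as a whole was almost level, with a ratio of 1.04 for Enshi black over Large White (1.04 to 1.05), 1.06 for wild boar over Large White (1.06 to 1.07) and 0.981 for Enshi black over wild boar (0.976 to 0.987). On library totals the first ratio was 1.62 (1.61 to 1.63) and the second 1.48 (1.47 to 1.49), so the size of the family difference from the Large White liver depends on the scaling. The third was 1.09 (1.09 to 1.10) on library totals, on the other side of 1.

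miR-30a-5p was the most abundant member in each liver, while miR-30d and miR-30e-5p exchanged places. miR-30a-5p held 55.6% of family reads in the Enshi black library (55.4 to 55.8), 49.6% in the wild boar library (49.4 to 49.8) and 50.0% in the Large White library (49.7 to 50.2). miR-30d held 18.1% in the Enshi black (17.9 to 18.2), 28.3% in the wild boar (28.2 to 28.5) and 14.3% in the Large White library (14.1 to 14.4). miR-30e-5p held 16.1% in the Enshi black (16.0 to 16.3), 10.9% in the wild boar (10.8 to 11.0) and 26.7% in the Large White library (26.5 to 27.0). miR-30e-5p was thus second to miR-30a-5p in the Large White liver, whereas miR-30d was second in both Chinese livers, by a small margin in the Enshi black and by a wide one in the wild boar. miR-30c-5p held 3.93% in the Enshi black, 4.59% in the wild boar and 2.34% in the Large White library, and miR-30b-5p 3.06%, 3.49% and 3.01% in the same order. The 4 3p arms together stayed between 3.08% and 3.66%.

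**Figure D1:**
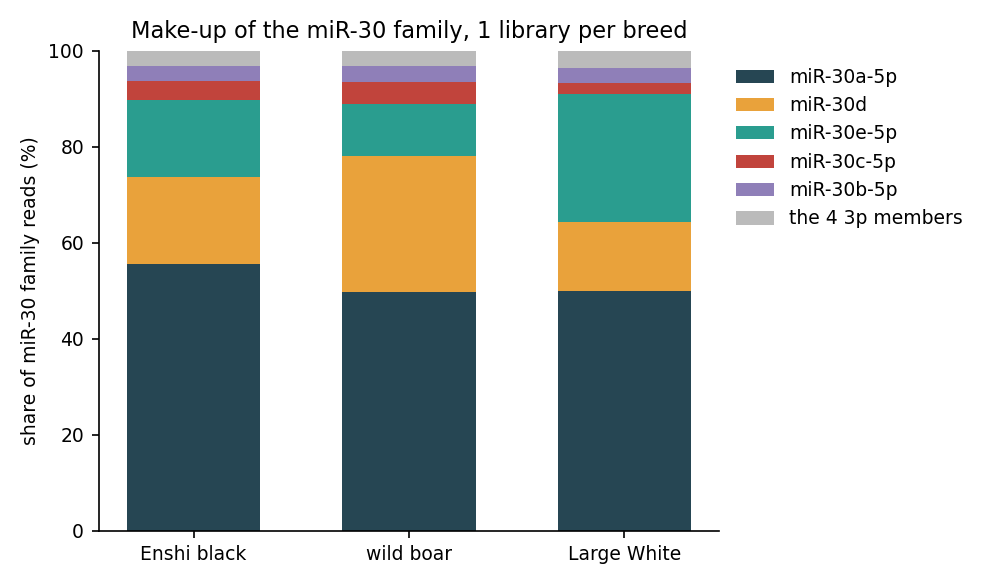
Share of miR-30 family reads held by each member (y axis, percent) in the Enshi black, wild boar and Large White libraries, 1 library per bar. miR-30a-5p fills about the lower 50% of each bar, while miR-30d is widest in the wild boar library (28.3%) and miR-30e-5p in the Large White library (26.7%).

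The ratio of one member to another inside a library is free of any scaling between libraries, and in the 2 comparisons with Large White its widest differences among the 5p arms were those of miR-30e-5p from the other 5p arms. The wild boar library held 2.61 reads of miR-30d per read of miR-30e-5p, and the Large White library 0.534, which is 4.88 times as many in the wild boar (4.78 to 4.99). The Enshi black library held 1.12, which is 2.10 times the Large White ratio (2.06 to 2.14) and 0.430 times the wild boar ratio (0.422 to 0.438). The 3 libraries therefore stood in the order wild boar, Enshi black, Large White, and none of these ratios of ratios had an interval that includes 1. miR-30c-5p against miR-30e-5p gave the same order, with 0.422 reads per read in the wild boar, 0.244 in the Enshi black and 0.0875 in the Large White library. That is 4.82 times the Large White ratio in the wild boar (4.63 to 5.02) and 2.79 times in the Enshi black (2.68 to 2.90). miR-30a-5p against miR-30e-5p was 2.44 times the Large White ratio in the wild boar (2.40 to 2.49), and miR-30b-5p against miR-30e-5p 2.86 times (2.75 to 2.97).

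In the 2 comparisons with Large White the other 5p arms kept closer to each other. Between Enshi black and wild boar they did not, since the ratio of miR-30a-5p to miR-30d differed by 1.76-fold (1.73 to 1.78), more than that of miR-30e-5p to miR-30a-5p, at 1.32-fold (1.30 to 1.35). Of the 10 pairs of 5p arms, 4 differed at least 2-fold, with an interval without 1, between wild boar and Large White, where 42.3% of all pairs of tested miRNAs were that far apart. Between Enshi black and Large White it was 2 of 10, beside 28.3% of all pairs, and between Enshi black and wild boar 1 of 10, beside 23.8%. A 2-fold difference between 2 members was thus no more common than between any 2 miRNAs of these libraries. Each of these 7 calls had miR-30e-5p as one of its members. Among the 6 pairs without it, the widest differences were between wild boar and Large White. There the ratio of miR-30a-5p to miR-30d was 1.75 in the wild boar and 3.50 in the Large White library, a ratio of ratios of 0.500 (0.491 to 0.509) that lies on the 2-fold line and was not past it. That of miR-30a-5p to miR-30c-5p had a ratio of ratios of 0.507 (0.488 to 0.526). miR-30c-5p and miR-30d moved together in that pair, at 0.987 (0.948 to 1.03), an interval that includes 1.

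**Figure D2:**
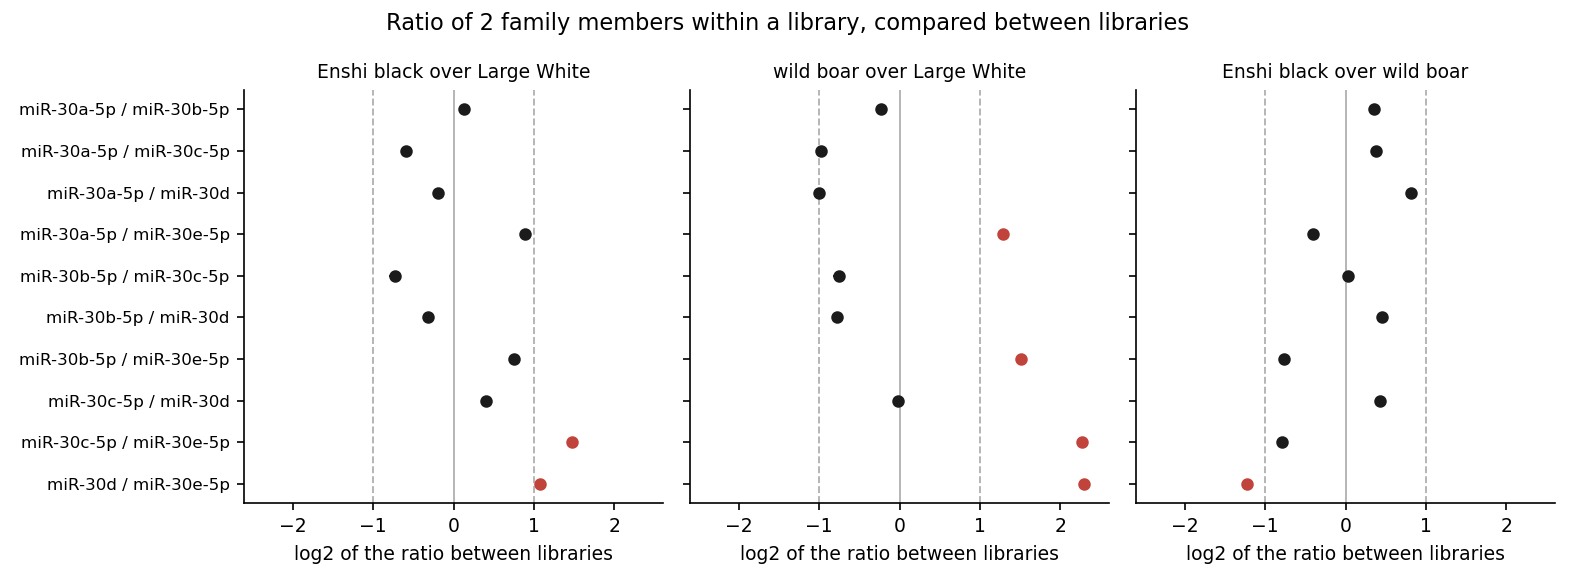
Log2 of the ratio between 2 miR-30 5p arms in one library over the same ratio in another (x axis), for the 10 pairs of 5p arms (y axis) and the 3 pairs of libraries, with 95% counting intervals mostly narrower than the points. Red points are at least 2-fold apart with an interval without 1 (dashed lines mark 2-fold), and all 7 of them involve miR-30e-5p.

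Some of these reads are shared between names, which bears on miR-30e-5p most of all. The deposited counts of miR-30a-5p and miR-30e-5p both ended in 0.5 of a read in the Enshi black and Large White libraries, and those of miR-30a-3p and miR-30e-3p did so in all 3, while the sum of each pair was whole in every library. Such fractions arise where a read is divided between 2 names. How many reads were divided was not recoverable from the counts, so the split between miR-30a and miR-30e rests on the authors' counting. The counts of miR-30b-5p, miR-30b-3p, miR-30c-3p and miR-30d were whole, as was miR-30c-5p once summed over its 2 precursors (tolerance 0.05 of a read). A whole count does not exclude divided reads, since an even number of fractions of 0.5 sums to a whole number. With miR-30a-5p and miR-30e-5p added together, which no division between them can alter, miR-30d still stood at 2.52 times the Large White ratio in the wild boar (2.48 to 2.56), and miR-30c-5p at 2.49 times (2.39 to 2.58). miR-30b-5p against that sum was 1.47 times the Large White ratio (1.42 to 1.53). Against the same sum, miR-30d was 1.35 times the Large White ratio in the Enshi black (1.33 to 1.38), under 2-fold, and miR-30c-5p 1.80 times (1.73 to 1.87).

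The levels of the 5p arms, on which the 2-fold rule between libraries was applied, follow in order of abundance. miR-30a-5p stood at 16292 CPM in the Enshi black liver, 14826 CPM in the wild boar liver and 14040 CPM in the Large White liver on the TMM scale, and ranked between 12 and 17 among all miRNAs. These are within 1.16-fold of each other. On library totals they were 19577, 15974 and 10844 CPM in that order, and Enshi black over Large White then became 1.81 (1.79 to 1.82).

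miR-30d, which is processed from the same locus as miR-30b, stood at 5294 CPM in the Enshi black liver, 8465 CPM in the wild boar liver and 4008 CPM in the Large White liver. It was highest in the wild boar, where it was 2.11-fold the Large White level (2.08 to 2.14), and the Enshi black level was 1.32-fold (1.30 to 1.34). Between the Chinese libraries, Enshi black over wild boar was 0.625 (0.618 to 0.633). On library totals the levels were 6362, 9121 and 3096 CPM in that order, and Enshi black over Large White then passed 2-fold at 2.05 (2.02 to 2.09).

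miR-30e-5p stood at 4727 CPM in the Enshi black liver, 3248 CPM in the wild boar liver and 7511 CPM in the Large White liver. It was lowest in the wild boar, at 0.432 of the Large White level (0.426 to 0.439), and the Enshi black level was 0.629 of it (0.621 to 0.638). On library totals these were 5680, 3500 and 5801 CPM in the same order. The wild boar ratio then became 0.603 (0.594 to 0.613), which is under 2-fold, and that of the Enshi black 0.979 (0.966 to 0.992). All these levels rest on how reads were divided between miR-30a-5p and miR-30e-5p. With these 2 names added together, the wild boar level after TMM was 0.839 of the Large White level (0.832 to 0.845). That of the Enshi black was 0.975 of it (0.968 to 0.982).

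miR-30c-5p, the member with the reported role in lipoprotein secretion, stood at 1153 CPM in the Enshi black liver, 1370 CPM in the wild boar liver and 657 CPM in the Large White liver. The wild boar level was 2.08-fold that of the Large White (2.01 to 2.16) and the Enshi black level 1.75-fold (1.69 to 1.82). Both Chinese libraries lay above the Large White under each scaling tried, and on library totals both were past 2-fold, at 2.91 for the wild boar (2.80 to 3.02) and 2.73 for the Enshi black (2.63 to 2.83). miR-30b-5p stood at 897 CPM in the Enshi black liver, 1044 CPM in the wild boar liver and 845 CPM in the Large White liver, and none of its ratios reached 1.5-fold after TMM. Of all 5p arms it was the scarcest in the Enshi black and wild boar libraries, while miR-30c-5p was the scarcest in the Large White.

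**Figure D3:**
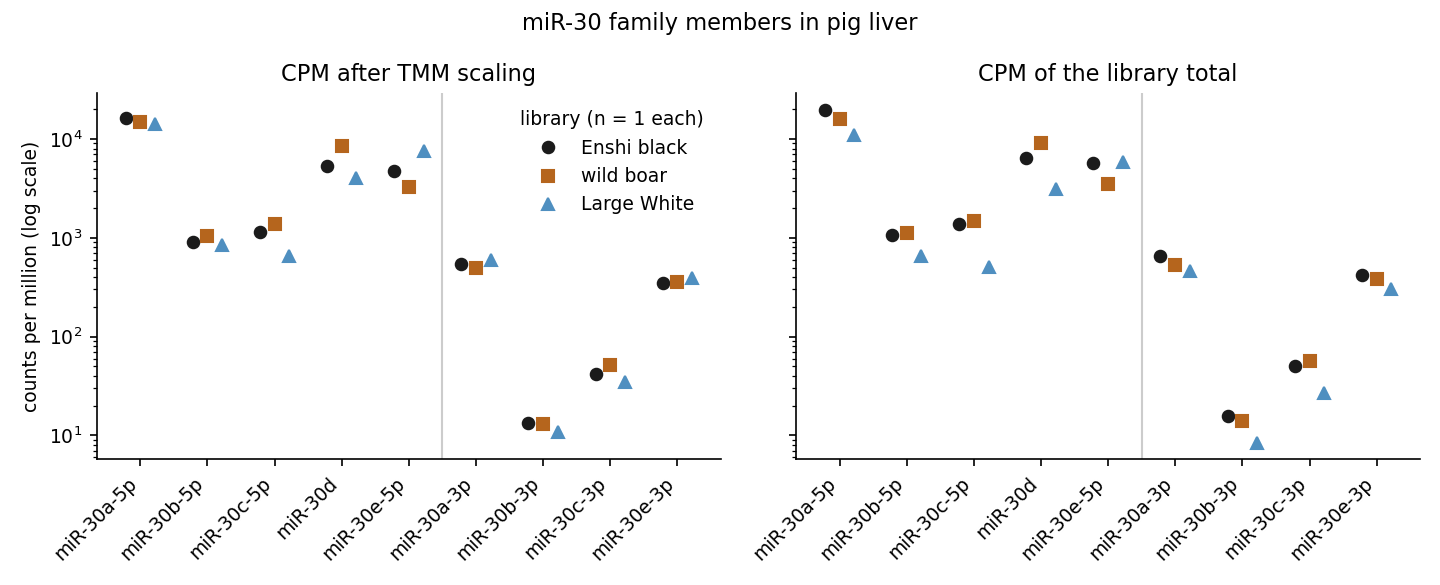
Counts per 1000000 reads (CPM, y axis, log scale) of the 9 miR-30 members in the Enshi black, wild boar and Large White libraries, after TMM scaling (left) and per library total (right), with 1 library per point and the 3p arms right of the grey line. Members span from 10.9 CPM to 16292 CPM after TMM. miR-30d is highest in the wild boar and miR-30e-5p highest in the Large White library in both panels.

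The 3p arms were far scarcer than their own 5p arms. At its widest after TMM, each differed less between livers than miR-30c-5p, miR-30d and miR-30e-5p did at theirs. In Enshi black over wild boar, however, miR-30c-3p at 0.812 lay further from 1 than miR-30c-5p at 0.842. miR-30a-3p stood at 547 CPM in the Enshi black liver, 498 CPM in the wild boar liver and 593 CPM in the Large White liver. miR-30e-3p stood at 347, 356 and 390 CPM in that order, and its Enshi black over wild boar ratio of 0.975 had an interval that includes 1 (0.928 to 1.03). Both were thus nearly level on this scale. On library totals both were instead lowest in the Large White library, with 658, 537 and 458 CPM for miR-30a-3p and 417, 383 and 301 CPM for miR-30e-3p in the same order of libraries.

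miR-30c-3p stood at 42.3 CPM in the Enshi black liver, 52.1 CPM in the wild boar liver and 34.7 CPM in the Large White liver, on 393, 439 and 197 reads. Its wild boar over Large White ratio was 1.499 (1.26 to 1.78), and 2.09 on library totals (1.76 to 2.49). miR-30b-3p was the scarcest member, with 123 reads in the Enshi black, 109 in the wild boar and 62 in the Large White library, or 13.2, 12.9 and 10.9 CPM. All 3 of its ratios had intervals that include 1 after TMM, so no difference was detectable at this depth on that scale.

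All 9 members passed the minimum of a mean of 10 CPM of the library total. Between wild boar and Large White, miR-30d and miR-30c-5p were called higher and miR-30e-5p lower after TMM, 3 of 9 members beside 25.0% of all 208 tested miRNAs. Between Enshi black and Large White 0 of 9 members passed 2-fold, beside 13.0% of all tested, and between Enshi black and wild boar 0 of 9, beside 12.5%. On library totals the calls for wild boar over Large White were miR-30c-5p, miR-30d and miR-30c-3p, all higher, beside 21.6% of all tested called higher. For Enshi black over Large White they were miR-30c-5p and miR-30d, both higher, beside 27.4%. The shares among members are near those among all miRNAs, so the number of calls does not set the family apart. The median log2 ratio over the members was 0.21 for Enshi black over Large White, 0.24 for wild boar over Large White and −0.04 for Enshi black over wild boar after TMM. The medians over all tested miRNAs, given above, lay 0.25, 0.26 and 0.03 from these. Between wild boar and Large White the members ran from −1.21 for miR-30e-5p to 1.08 for miR-30d, and the SD of their log2 ratios was 0.71, against 0.96 over all tested miRNAs. Their spread was likewise below that of all tested miRNAs in Enshi black over Large White, at 0.42 against 0.69, and in Enshi black over wild boar, at 0.34 against 0.70. The members were not matched to other miRNAs by abundance, and some of them divide reads, so the spreads are a description only.

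**Figure D4:**
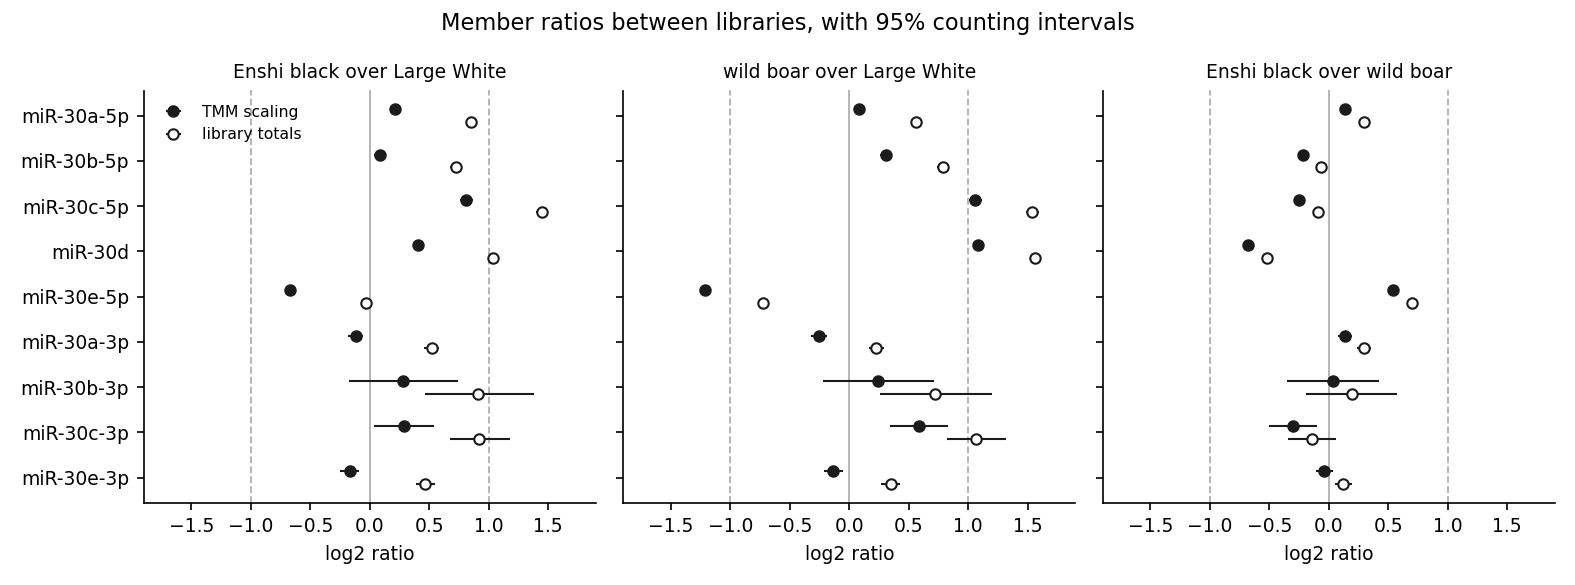
Log2 ratio (x axis) of each miR-30 member (y axis) between 2 libraries, for Enshi black over Large White, wild boar over Large White and Enshi black over wild boar, with 95% counting intervals. Filled points are after TMM scaling and open points on library totals, and dashed lines mark 2-fold. In the wild boar over Large White panel miR-30c-5p and miR-30d lie right of 2-fold on both scales, while miR-30e-5p lies left of it after TMM only.

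Arm use was measured within each precursor, which again needs no scaling. The 5p arm dominated in all 5 precursors with both arms named, holding at least 90.1% of reads in every library. mir-30e varied most. Its 3p arm took 6.84% of reads in the Enshi black (6.61 to 7.07), 9.87% in the wild boar (9.53 to 10.21) and 4.94% in the Large White library (4.74 to 5.14). The 3p share of mir-30e was thus highest in the wild boar, where the reads of miR-30e-3p per read of miR-30e-5p were 2.11 times those of the Large White (1.99 to 2.23), and 1.41 times in the Enshi black (1.34 to 1.49). In mir-30a the Large White library was instead the highest, with 3.25% on the 3p arm in the Enshi black (3.16 to 3.34), 3.25% in the wild boar (3.15 to 3.35) and 4.06% in the Large White library (3.92 to 4.19). The Chinese libraries were within counting error of each other there, and the ratio of 3p to 5p reads in the Enshi black over that in the wild boar had an interval that includes 1 (0.959 to 1.04).

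The ratio of miR-30a-3p to miR-30e-3p was 1.58 in the Enshi black, 1.40 in the wild boar and 1.52 in the Large White library, so the 3p arms of mir-30a and mir-30e stayed within 1.13-fold of each other between libraries. Their 5p arms did not, at 3.45, 4.56 and 1.87 in the same order. Reads of both arms are partly shared between these precursors, as given above, so the arm shares of each rest on how reads were divided. With the names of both precursors added together, wild boar over Large White after TMM was 0.839 for the 5p arms and 0.868 for the 3p arms. Enshi black over Large White was 0.975 and 0.909 in that order. These 5p and 3p sums thus differed far less from each other than miR-30e-5p and miR-30e-3p did. The part of the division in the arm use of mir-30e was not tested. mir-30b showed no difference in arm use beyond counting error, with 1.45% on the 3p arm in the Enshi black, 1.22% in the wild boar and 1.28% in the Large White library, and intervals for the ratios between libraries that all include 1. The span of 4.93 percentage points in mir-30e ranked 24 among 62 precursors with 1 named arm of each kind, whose median span was 2.66. These precursors were not matched by read number or by how even their arms were, so the rank is a description only. mir-30c-2 spanned 2.72, mir-30c-1 1.04, mir-30a 0.806 and mir-30b 0.232 points. As counted, the span of mir-30e in percentage points was thus wider than in most of these precursors, but far from the widest.

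**Figure D5:**
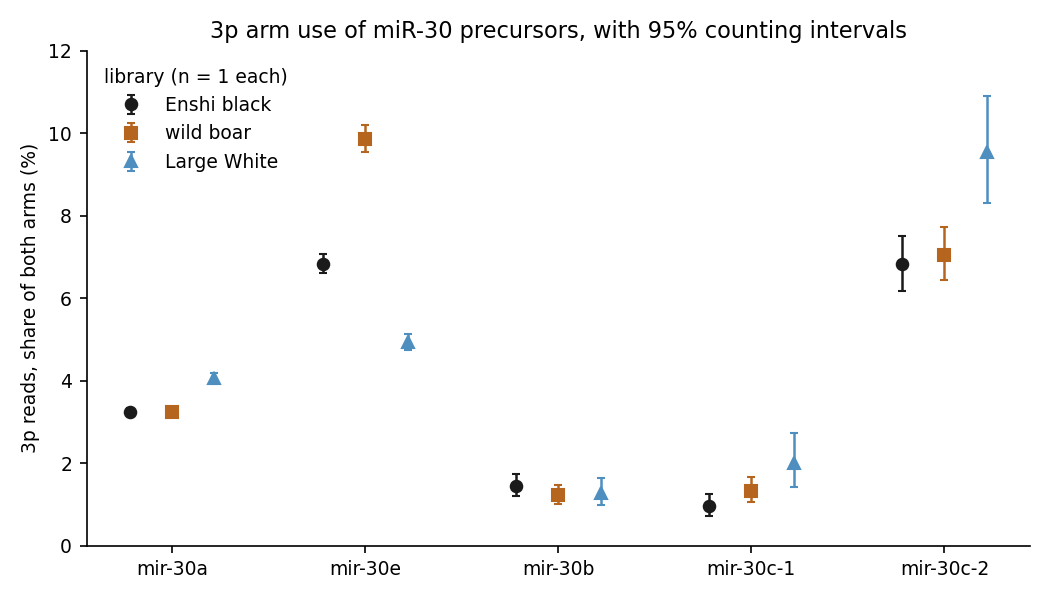
Share of reads on the 3p arm (y axis, percent of both arms) for 5 miR-30 precursors in the Enshi black, wild boar and Large White libraries, with 95% counting intervals. mir-30e runs from 4.94% in the Large White to 9.87% in the wild boar library, while mir-30a and mir-30c-2 are highest in the Large White library.

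The miR-30c name has 2 sources that the counts separate only on the 3p side. Reads of miR-30c-5p were divided almost evenly, with 5345.5 assigned to mir-30c-1 and 5365.5 to mir-30c-2 in the Enshi black, 5771.5 and 5779.5 in the wild boar, and 1863 and 1866 in the Large White library. The assigned counts differ by 20, 8 and 3 reads in that order of libraries, under 0.2% of their sum each time, so they do not tell which precursor made the 5p arm. The 3p arms are counted apart. miR-30c-3p, assigned to mir-30c-2, had 393 reads in the Enshi black, 439 in the wild boar and 197 in the Large White library, while miR-30c-1-3p, from mir-30c-1, had 52, 78 and 38. The ratio of miR-30c-1-3p to miR-30c-3p was 0.132 in the Enshi black, 0.178 in the wild boar and 0.193 in the Large White library, and all 3 comparisons had intervals that include 1, such as 0.594 to 1.45 for wild boar over Large White. The 3p shares of mir-30c-1 and mir-30c-2, at 0.963% and 6.82% in the Enshi black, 1.33% and 7.06% in the wild boar and 1.999% and 9.55% in the Large White library, have these evenly divided 5p reads as their denominator. Reads of miR-30c-3p, counted for mir-30c-2 alone, per read of miR-30c-5p of both precursors were 0.695 times the Large White ratio in the Enshi black (0.581 to 0.832) and 0.719 times in the wild boar (0.604 to 0.859). With the reads of both 3p arms added together, a sum chosen after seeing the data, these were 0.659 times (0.559 to 0.779) and 0.710 times (0.605 to 0.836).

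Ratios between members made from neighbouring precursors differed between libraries in some comparisons and not in others. In the RefSeq gene table of the assembly Sscrofa11.1, where all 6 precursor genes were found by symbol, MIR30C-2 lies beside MIR30A, MIR30D beside MIR30B, and MIR30C-1 beside MIR30E, each pair with no other gene starting between. In humans and mice the last pair lies in an intron of NFYC, which encodes a subunit of the transcription factor NF-Y. Reads of miR-30b-5p per read of miR-30d were 0.169 in the Enshi black, 0.123 in the wild boar and 0.211 in the Large White library. The wild boar ratio was 0.585 of the Large White one (0.563 to 0.608), so within this pair miR-30d was relatively more abundant in the wild boar. The Enshi black ratio was 0.804 of the Large White one (0.773 to 0.836). Both counts are whole, which does not exclude divided reads. In the pair of mir-30c-1 and mir-30e, reads of miR-30c-1-3p per read of miR-30e-3p were 1.51 times the Large White ratio in the wild boar (1.01 to 2.30), and per read of miR-30e-5p 3.19 times (2.14 to 4.84). The first interval nearly reaches 1. In the Enshi black the same 2 ratios were 0.939 times (0.604 to 1.47) and 1.33 times (0.857 to 2.07) the Large White ones, and both intervals include 1. In the pair of mir-30a and mir-30c-2, reads of miR-30c-3p per read of miR-30a-3p were 1.79 times the Large White ratio in the wild boar (1.497 to 2.14) and 1.32 times in the Enshi black (1.10 to 1.58). miR-30c-1-3p lies under the minimum of 10 CPM, at 6.73 CPM of the library total in the Enshi black, 9.97 in the wild boar and 5.17 in the Large White library. The names miR-30e-3p, miR-30e-5p and miR-30a-3p hold divided reads.

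The 3 miRNAs outside the family whose levels were most like the summed 5p arms, by Euclidean distance of centred log2 CPM over the 3 libraries, were miR-103, miR-423-3p and miR-181c. The distances were 0.03, 0.05 and 0.08 among 123 candidates with a median distance of 0.50. miR-103 stood at 6025 CPM in the Enshi black liver, 6241 CPM in the wild boar liver and 5664 CPM in the Large White liver. The summed 5p arms were nearly level at 28363, 28954 and 27061 CPM, so these are miRNAs that were nearly level too. With 3 points each, the likeness is a description of these libraries.

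Summed reads of marker miRNAs of several cell types differed between the 3 libraries as well. Such sums do not tell the number of cells from the RNA per cell. The 4 hepatocyte markers (miR-122, miR-885-5p, miR-192 and miR-194a) summed to 41.0% of reads in the Enshi black, 47.4% in the wild boar and 50.8% in the Large White library. Of these, miR-122 alone took 34.2%, 39.5% and 41.4% of reads in that order. The 4 mesenchymal markers took 5.10%, 3.66% and 2.44% in that order, and the 2 endothelial markers 1.957%, 1.31% and 0.779%. Both had the order of the miR-30 family share, a match that did not hold after TMM. The family sum was then highest in the wild boar, with 29872 CPM beside 29313 for the Enshi black. Mesenchymal (42462, 34011 and 31563 CPM, libraries ordered as before) and endothelial sums (16284, 12169 and 10080 CPM) stayed highest in the Enshi black. The 5 leucocyte markers measured, of 6 listed, summed to 10877 CPM in the Enshi black liver, 3651 CPM in the wild boar liver and 20806 CPM in the Large White liver after TMM, which is the order of miR-30e-5p. The 3 red cell markers summed to 4114, 3114 and 5324 CPM in the Enshi black, wild boar and Large White libraries and the 3 striated muscle markers to 77.2, 44.7 and 137 CPM, and on this scale both were likewise lowest in the wild boar and highest in the Large White. In percent of reads, leucocyte markers (1.31%, 0.393% and 1.61% in that order) and striated muscle markers (0.00927%, 0.00482% and 0.0106%) kept this order. Red cell markers did not, at 0.494% in the Enshi black, 0.336% in the wild boar and 0.411% in the Large White library. No marker measured was at 0 in any library. With 1 library per breed, breed, cell make-up and preparation cannot be told apart, and the part of these markers in the miR-30 values was not tested.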

How the data were processed

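Per the labels' protocols, small RNA of 14 to 40 nucleotides from liver was selected on a gel and read from one end over 50 bases. The genome build was Sscrofa10.2, per the submitters' processing notes; which aligner, counter and set of miRNAs were used is not given in the sources used here. Each deposited file gives an expected count for each mature name and precursor (486 rows, partly fractional), and RPM, which the authors computed per 1000000 of the library sum and which was not used. Counts were summed over precursors, 6 names that repeat the rows of another name were left out, and sums were rounded to whole numbers, because the plan had assumed whole counts. TMM factors (edgeR 4.0.16, R 4.3.3) were 1.20 for the Enshi black, 1.08 for the wild boar and 0.772 for the Large White library. Ratios of 2 libraries have exact conditional-binomial intervals, shares exact Clopper-Pearson intervals, and ratios of ratios exact conditional intervals (scipy 1.17.1); for the background over all pairs of miRNAs a log-normal interval was used. A call needs a 2-fold difference and an interval without 1. It was applied to 208 miRNAs with a mean of at least 10 CPM of the library total, and arm shares needed 100 reads over both arms. The ratio rule was tested on simulated data. Intervals cover the counting error of reads only. Reads carry no molecular identifiers, so the counting error of molecules may be wider. All members are named, plus miR-122 and the 3 miRNAs most like the summed 5p arms among those with a mean of at least 100 CPM. Alternatives were other scalings (DESeq2 1.42.0 size factors among them), filters, thresholds, thinning and the treatment of shared reads. The members and lists were chosen with earlier results of these data known.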

Additional observations from a re-analysis of the deposited data

How the results depend on the processing

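No paired analysis was possible because each breed has 1 library, and for the same reason no replicate could be left out. The correction for base composition was not run, since mature sequences were not used here. Without miR-122 in the total, the family share was 5.35% in the Enshi black, 5.32% in the wild boar and 3.703% in the Large White library. Members called higher in Enshi black over Large White, 0 after TMM, were 2 on library totals, 1 on totals without miR-122 and 1 at a 1.5-fold threshold, and members called lower were 1 at that threshold. Members called lower in wild boar over Large White, 1 after TMM, were 0 on library totals and 0 on totals without miR-122. They were also 0 with members whose summed count is not whole left out. In Enshi black over wild boar 1 member was lower at 1.5-fold. With names whose rows are not whole left out, 1 pair of 5p arms remained to compare, and 0 were 2-fold apart in each of the 3 comparisons. With miR-30a-5p and miR-30e-5p added together, an alternative chosen after seeing the data, 4 of the 6 differences of miR-30b-5p, miR-30c-5p and miR-30d from miR-30e-5p fell under 2-fold, and those of miR-30c-5p and miR-30d in wild boar over Large White kept it. Counted over 5p arms only, miR-30a-5p held 57.4% of the family in the Enshi black, 51.2% in the wild boar and 51.9% in the Large White library, miR-30b-5p 3.16%, 3.61% and 3.12%, miR-30c-5p 4.07%, 4.73% and 2.43%, miR-30d 18.7%, 29.2% and 14.8%, and miR-30e-5p 16.7%, 11.2% and 27.8%, in the same order. All 27 member ratios kept their side of 2-fold under DESeq2 size factors and in thinned libraries. On library totals 23 did, 3 passed 2-fold and 1 fell under it, and on totals without miR-122 these were 24, 2 and 1. Each scaling shifts every ratio between 2 libraries by 1 common factor. The family ratio stayed under 2-fold under every scaling tried, and arm shares moved by less than their intervals. Depth limits miR-30b-3p and miR-30c-1-3p most.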
